A study of Mus musculus with 12 samples.

Results

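The response to chronic stress was examined in females that lack Cav3.1, with RNA from their medial prefrontal cortex (mPFC). Cav3.1 is a T-type calcium channel whose pore subunit is encoded by Cacna1g. The members were chosen by genotype alone, as every library made from the knockout (KO) mice, which gave 6 of the 12 libraries of the series. Of these, 3 came from stressed KO mice and 3 from unstressed KO mice. Stressed KO mice were put through a forced swim test, in water at 25 °C, or tail suspension, each lasting 5 min, with 1 of these tests daily over 5 days, and unstressed KO mice received neither. Every mouse of both groups carried the same Cacna1g deletion on a C57BL/6J background, obtained from the RIKEN BRC, and was 8 to 12 weeks old. The deletion is constitutive, so it is not limited to the cortex or to a cell type. The labels do not say whether each library came from its own animal, and the p-values cover only the spread seen among the libraries. Estimated counts summed to 28022130, 20716635 and 15469590 in stressed KO libraries 1, 2 and 3, against 26252377, 22608262 and 20892789 in unstressed KO libraries 1, 2 and 3. The comparison asks which transcripts differ after chronic stress when Cav3.1 is absent.

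The medial prefrontal cortex takes part in coping with inescapable stress, and forced swimming and tail suspension are standard tests of immobility in mice. Several gene programmes in this tissue are known to respond to arousal and stress hormones. They include immediate early genes, which are transcribed soon after neuronal activity, targets of the glucocorticoid receptor, and genes of the circadian clock. In the clock, the activators CLOCK and ARNTL (BMAL1) bind E-box elements and drive Per, Cry, Ciart and Dbp, whose products repress the activators or pass the rhythm on to output genes. DBP, TEF and HLF are PAR bZIP factors that bind D-box elements, and NFIL3 opposes them there.

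Cacna1g, the deleted gene, had 58.5, 66.0 and 57.6 CPM (counts scaled to library size, with TMM factors) in stressed KO libraries, against 65.1, 54.6 and 61.7 CPM in unstressed KO libraries. The count covers the whole gene and does not separate the deleted part from the rest, so it does not check the genotype label. The log2 fold change was 0.00 ± 0.09 (SE, n = 3 per group, adjusted p = 0.995), and 0.03 without stressed library 1. Markers of cortical excitatory neurons summed to between 3165 and 3256 CPM in stressed and between 3052 and 3508 CPM in unstressed KO libraries, with 23 of 23 listed genes passing the filter on low counts.

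Stressed KO library 1 stood apart from the other 5. It had 100 genes at more than 2-fold above the highest of the other KO libraries and 20 at more than 2-fold below the lowest, whereas each other library had between 1 and 12 above and between 1 and 10 below. Drd2, the dopamine receptor of indirect-pathway striatal neurons, had 14.3 CPM in that library and at most 1.34 CPM in the others. Mbp, which encodes myelin basic protein, had 1032 CPM there and between 446 and 633 CPM elsewhere. Summed levels of 18 striatal projection neuron markers came to 1418 CPM in stressed library 1, against 717 and 671 CPM in stressed libraries 2 and 3 and between 684 and 701 CPM in unstressed libraries. The 25 oligodendrocyte and myelin markers summed to 3617 CPM there, against 1886 and 1820 CPM in stressed libraries 2 and 3 and between 2037 and 2307 CPM in unstressed libraries. Chat and Slc5a7, genes of cholinergic neurons, and Top2a and Mki67, genes of dividing cells, were also highest there, with Mki67 at 5.88 CPM and at most 1.10 CPM elsewhere. Ctgf, a marker of the deepest cortical layer, had 70.6 CPM there and at most 32.8 CPM elsewhere. The first principal component, with 31.1% of the variance, placed this library at -38.0 and the other 5 between -5.22 and 15.9. In bulk tissue, a different number of cells of a type and a different amount of RNA per cell cannot be told apart. Log2 fold changes of genes and list medians below are therefore followed by their values without that library. Values with transcript length or GC content offset, and those from other alternative fits, are given alone.

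Few single genes passed the test for stress in KO. Of 15199 genes tested, 3 (0.0197%) had an adjusted p under 0.05 in edgeR's quasi-likelihood test: Dbp rose, and Itgb8 and Pakap fell. At an unadjusted p under 0.05 there were 1398 genes, 643 higher and 755 lower. All values of stressed libraries lay above all values of unstressed libraries for 1285 genes (8.45%) and below them for 1284 genes (8.45%). Without stressed library 1, 5 of 15360 genes (0.0326%) passed. These were the same 3 genes with Nr4a1 and Grin2b, so none of the 3 rested on that library. Of the 1398 genes at an unadjusted p under 0.05, 1393 were tested without stressed library 1. There, 1389 had the same sign, 4 had the opposite sign, and 865 again had an unadjusted p under 0.05.

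**Figure D1:**
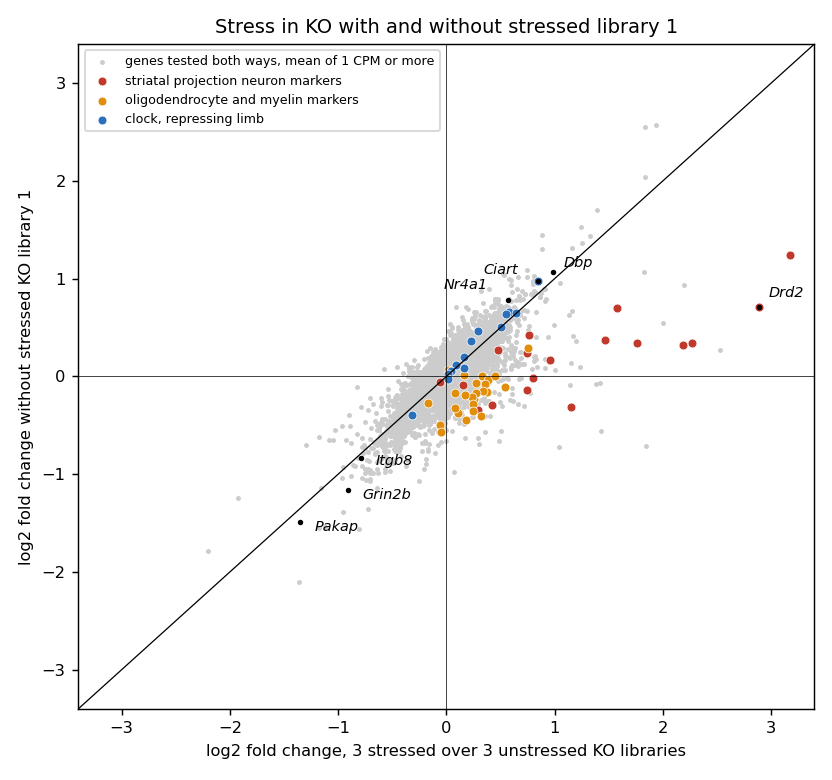
Log2 fold change of stressed over unstressed KO cortex with all 6 libraries (horizontal axis) and without stressed library 1 (vertical axis), for 13777 genes with a mean of at least 1 CPM, of which 4 lie outside the plotted range. The diagonal marks equal values; clock genes lie along it, whereas Drd2 lies far to its right, all 18 striatal markers are larger with library 1 by differing amounts, and most myelin markers drop below 0.

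Dbp, a PAR bZIP factor and a classic output of the clock, rose. It had 98.2, 111 and 122 CPM in stressed KO libraries, against 51.4, 58.9 and 56.7 CPM in unstressed KO libraries. The groups did not overlap and stressed library 1 was the lowest of its group. The log2 fold change was 0.99 ± 0.11 (SE, n = 3 per group, adjusted p = 0.0089), and 1.06 without stressed library 1. With any other single KO library left out, Dbp had an adjusted p between 0.0513 and 0.0770 and a log2 fold change between 0.91 and 1.03. The gene lies on chromosome 7 (45705088 to 45710203, GRCm38, plus strand) and overlaps Sphk2, a sphingosine kinase gene whose log2 fold change was -0.02 ± 0.08, or 0.02 without stressed library 1.

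Genes of the repressing limb of the clock were mostly higher in stressed KO libraries, and none passed the threshold. Per1, a period gene that is also a direct target of the glucocorticoid receptor and of CREB, had 73.1, 85.3 and 85.3 CPM in stressed against 59.6, 51.8 and 51.2 CPM in unstressed KO libraries (log2 0.58 ± 0.09, adjusted p = 0.139; 0.65 and 0.069 without stressed library 1). Per3, its paralogue, had 39.2, 42.8 and 37.7 CPM in stressed against 25.6, 23.5 and 27.9 CPM in unstressed libraries (log2 0.64 ± 0.11, adjusted p = 0.179; 0.65 without stressed library 1). Ciart, a repressor of CLOCK and ARNTL, had 13.4, 17.0 and 18.7 CPM in stressed against 8.05, 8.94 and 10.3 CPM in unstressed libraries (log2 0.84 ± 0.15, adjusted p = 0.224; 0.97 and 0.080 without stressed library 1). None of the 3 passed, and in each of them the groups did not overlap. Bhlhe41, a basic helix-loop-helix repressor of E-boxes, had a log2 fold change of 0.55 ± 0.12 (47.3, 56.3 and 58.2 against 36.1, 40.2 and 34.0 CPM; adjusted p = 0.416; 0.64 without stressed library 1). Per2 had 32.7, 32.0 and 34.3 CPM in stressed against 24.5, 20.5 and 24.8 CPM in unstressed libraries (log2 0.50 ± 0.14, adjusted p = 0.470; 0.51 without stressed library 1).

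Of 14 tested genes of the repressing limb, 0 passed, 13 had a log2 fold change above 0 (12 without stressed library 1), and 6 (42.9%) had groups that did not overlap with stressed higher, beside 1 with stressed lower, against 8.45% each way over all genes. The median log2 fold change of these 14 was 0.19, and 0.28 without stressed library 1, against medians of -0.00 and -0.01 over all genes tested. Nr1d1, the REV-ERB alpha repressor, overlapped between the groups, with 115, 150.3 and 162 CPM in stressed and 120.3, 117 and 127 CPM in unstressed libraries; its lowest value was that of stressed library 1.

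The activating limb lay on the other side. Arntl had 31.0, 32.9 and 33.0 CPM in stressed against 43.0, 36.7 and 42.9 CPM in unstressed KO libraries (log2 -0.34 ± 0.10, adjusted p = 0.470; -0.31 without stressed library 1). Clock had 107, 107 and 94.3 CPM in stressed against 119.8, 113 and 136 CPM in unstressed libraries (log2 -0.26 ± 0.09, adjusted p = 0.470; -0.29 without stressed library 1). With transcript length offset in each library, as described below, Clock, whose transcript has 9744 bases, was at -0.10 (adjusted p = 0.680). Neither passed, and neither overlapped between the groups. Of 7 genes tested, 5 had a log2 fold change below 0 (4 without stressed library 1). The list's median was -0.11, or -0.08 without stressed library 1 and -0.02 with length offset. Arntl2, a paralogue of Arntl, had 5.78, 5.30 and 4.93 CPM in stressed against 4.58, 4.06 and 3.64 CPM in unstressed libraries (log2 0.38 ± 0.13, adjusted p = 0.470; 0.32 without stressed library 1). Among 7 clock output genes Dbp alone passed, and the median was 0.19, or 0.26 without stressed library 1. Tef, the nearest relative of Dbp here, had 341, 355 and 356 CPM in stressed against 282, 309 and 291 CPM in unstressed libraries (log2 0.26 ± 0.06, adjusted p = 0.470; 0.27 without stressed library 1). Hlf and Usp2 had log2 fold changes of 0.19 and 0.24, with overlapping groups, and 0.26 and 0.34 without stressed library 1. Nfil3, the factor that opposes DBP at D-boxes, had -0.20 ± 0.18, or -0.30 without stressed library 1. The housing had a regular light and dark cycle, per the labels. The time of day at which the cortex was collected is not given in the sources used here, and its part in these values was not tested.

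**Figure D2:**
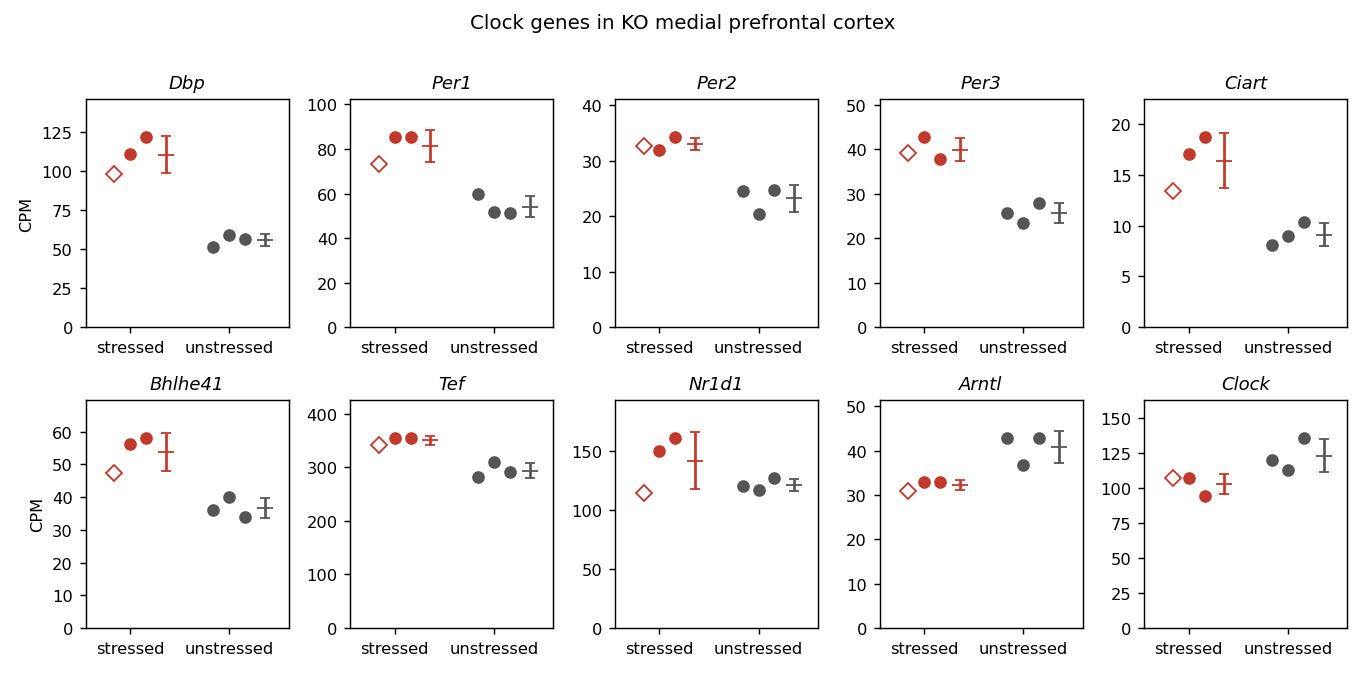
CPM of 10 clock genes in each KO library, stressed on the left and unstressed on the right, with the mean and SD (n = 3) beside the points; the open diamond is stressed library 1. Dbp is at 98.2 CPM or more in stressed and at 58.9 CPM or less in unstressed libraries, Per and Ciart values separate in the same direction, and Arntl and Clock separate in the opposite one.

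Promoters of the clock genes with the smallest p-values, Dbp, Per1, Per3 and Ciart, are shown because their known regulators act through short elements near the start. Sequences are from RefSeq on GRCm38.p6 and run from 250 bases before to 50 after an annotated start, and 22 clock genes had at least 1 such window (31 windows). Capitals mark the E-box CACGTG, which reads the same on both strands, and the D-box TTATGTAA, searched on both strands; the motifs share no overlap. The E-box was found in 7.15% of 32851 promoter windows and the D-box in 0.938%. Ciart (chr3:95882179-95882478, minus strand) held 3 E-boxes, Per1 (chr11:69098699-69098998, plus strand) held 1, Per3 (chr4:151044616-151044915, minus strand) held 2 D-boxes, and Dbp (chr7:45704997-45705296, plus strand) held neither in this window. Windows of Bhlhe41, Cry1 and Tef also held the E-box.
Ciart: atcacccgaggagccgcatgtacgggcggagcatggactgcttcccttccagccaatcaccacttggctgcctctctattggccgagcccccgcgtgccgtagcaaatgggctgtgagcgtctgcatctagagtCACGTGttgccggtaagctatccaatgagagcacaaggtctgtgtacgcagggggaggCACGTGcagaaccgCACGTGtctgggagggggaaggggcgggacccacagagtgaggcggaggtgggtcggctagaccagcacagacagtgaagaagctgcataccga
Per1: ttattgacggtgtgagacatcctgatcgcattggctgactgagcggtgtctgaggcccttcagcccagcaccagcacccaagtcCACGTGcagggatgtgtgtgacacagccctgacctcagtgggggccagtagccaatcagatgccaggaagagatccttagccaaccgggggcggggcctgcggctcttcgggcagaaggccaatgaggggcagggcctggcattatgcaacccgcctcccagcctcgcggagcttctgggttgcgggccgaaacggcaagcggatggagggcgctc
Per3: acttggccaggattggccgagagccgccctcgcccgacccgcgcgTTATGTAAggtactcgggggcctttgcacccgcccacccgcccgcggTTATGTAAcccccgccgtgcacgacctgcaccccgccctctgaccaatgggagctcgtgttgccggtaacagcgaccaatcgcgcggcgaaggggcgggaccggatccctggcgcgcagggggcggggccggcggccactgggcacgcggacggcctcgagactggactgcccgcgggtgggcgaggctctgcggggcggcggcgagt
Dbp: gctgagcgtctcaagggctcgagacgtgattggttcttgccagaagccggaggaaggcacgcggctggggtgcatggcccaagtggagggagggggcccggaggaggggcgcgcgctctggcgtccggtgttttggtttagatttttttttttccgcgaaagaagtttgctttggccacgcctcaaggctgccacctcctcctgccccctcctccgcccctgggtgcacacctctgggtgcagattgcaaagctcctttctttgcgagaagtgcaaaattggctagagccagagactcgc

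Itgb8 fell. It encodes the beta-8 integrin subunit, which pairs with the alpha-v subunit encoded by Itgav, and the pair is known for releasing active TGF-beta from its latent complex. Itgb8 had 17.0, 16.4 and 14.7 CPM in stressed KO libraries, against 25.7, 28.3 and 29.5 CPM in unstressed KO libraries, without overlap. It fell by 0.79 ± 0.09 on the log2 scale (SE, n = 3 per group, adjusted p = 0.0112), and by 0.84 without stressed library 1 (adjusted p = 0.042). When the KO libraries were fitted without those of wild-type (WT) mice, its adjusted p was 0.107. The gene lies on chromosome 12 (119158022 to 119238802, GRCm38, minus strand).

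Its partner Itgav had 72.3, 91.9 and 91.1 CPM in stressed against 123.5, 123 and 116 CPM in unstressed KO libraries (log2 -0.51 ± 0.10, adjusted p = 0.341; -0.40 without stressed library 1) and did not pass. Of 21 genes of the alpha-v integrin and TGF-beta pathway, Itgb8 alone passed. In 5 (23.8%) the groups did not overlap with stressed lower, and in 0 with stressed higher, against 8.45% each way over all genes and 12.0% lower and 4.60% higher among genes of 4000 to 6000 bases, the class of the list's median of 5116 bases. Besides Itgb8 and Itgav these were the receptor Tgfbr1 (log2 -0.25 ± 0.09; -0.21 without stressed library 1), the signal transducer Smad4 (-0.17 ± 0.07; -0.21) and the transcriptional repressor Skil (-0.20 ± 0.13; -0.26). The ligands Tgfb1, Tgfb2 and Tgfb3 had log2 fold changes of 0.27, -0.03 and 0.04, with overlapping groups, and 0.40, -0.06 and 0.08 without stressed library 1. The list's median log2 fold change was -0.04, -0.05 without stressed library 1, and -0.00 with length offset.

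Pakap fell by the most among genes that passed. It had 13.9, 11.5 and 10.1 CPM in stressed KO libraries, against 29.5, 28.0 and 33.7 CPM in unstressed KO libraries (log2 -1.35 ± 0.13, adjusted p = 0.0030; -1.49 without stressed library 1). The value is uncertain, because this gene model spans chromosome 4 from 57568179 to 57896982 (GRCm38), overlaps Akap2 and Palm2, and had estimated counts with decimals in 12 of 12 libraries, as arise where reads are shared out between models. Akap2, an anchoring protein of protein kinase A, lay on the other side, with 77.0, 79.9 and 73.9 CPM in stressed against 66.9, 59.3 and 60.3 CPM in unstressed libraries (log2 0.31 ± 0.08, adjusted p = 0.470; 0.31 without stressed library 1). Pakap and Akap2 added together came to 90.9, 91.4 and 84.0 CPM in stressed and 96.4, 87.3 and 94.0 CPM in unstressed libraries, which overlap. Pakap took 8.91% ± 1.05 of the sum of the 3 overlapping models in stressed and 21.4% ± 1.34 in unstressed libraries (SD, n = 3 each). All 3 models together came to 137, 138 and 122 CPM in stressed and 145, 134 and 147 CPM in unstressed libraries, which overlap as well.

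**Figure D3:**
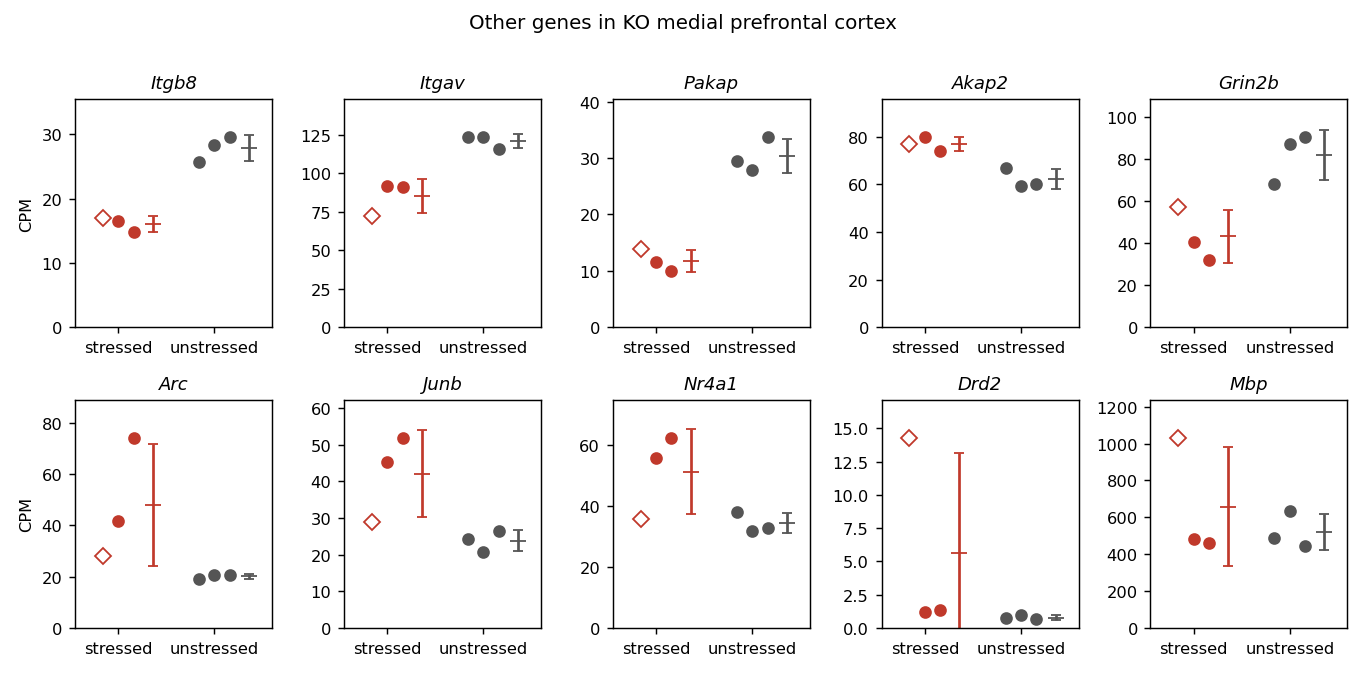
CPM of 10 further genes in each KO library, stressed on the left and unstressed on the right, with the mean and SD (n = 3) beside the points; the open diamond is stressed library 1, and the SD bar of Drd2 runs below the axis. Itgb8, Itgav, Pakap and Grin2b lie lower in stressed libraries without overlap, Arc spreads from 28.1 to 74.2 CPM among stressed libraries, and Drd2 and Mbp are set apart by stressed library 1.

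Several other genes with small p-values had groups that did not overlap, and none passed. Arhgap5, a GTPase-activating protein, had 114, 109 and 100.026 CPM in stressed against 146, 164 and 157 CPM in unstressed libraries (log2 -0.53 ± 0.08, adjusted p = 0.139; -0.57 without stressed library 1). Ptprz1, a receptor tyrosine phosphatase of glial precursors and astrocytes, had 159, 143 and 139.7 CPM in stressed against 209.9, 259 and 195 CPM in unstressed libraries (log2 -0.59 ± 0.10, adjusted p = 0.179; -0.65 without stressed library 1). Mib1, a ubiquitin ligase for Notch ligands, had a log2 fold change of -0.72 ± 0.13, Ptpn4 of -0.78 ± 0.15, and Hgf, hepatocyte growth factor, of -0.82 ± 0.16; without stressed library 1 they were at -0.77, -0.92 and -0.84. Cpeb4, which regulates translation through cytoplasmic polyadenylation, and the peptidase gene Trhde were at -0.36 and -0.38, and the kinase gene Nek7 at -0.32, or -0.39, -0.37 and -0.32 without stressed library 1. Higher without overlap were the splicing factor gene Snrpa (0.30 ± 0.06; 0.31 without stressed library 1), Ier5l (0.55 ± 0.12; 0.57) and Epha8, an ephrin receptor (0.87 ± 0.18; 0.82). All 20 genes with the smallest p had groups that did not overlap, and each kept its sign without stressed library 1. These genes were picked by p from the same libraries, so neither trait is separate support for them. Of the 1393 genes at an unadjusted p under 0.05 that were tested both ways, 1389 kept their sign as well. Arhgap5, Ptprz1, Mib1 and Ptpn4 have transcripts of 9323, 8068, 10231 and 10874 bases. With length offset they were at -0.37, -0.49, -0.57 and -0.63, with adjusted p of 0.439, 0.540, 0.184 and 0.184. Among all genes of 8000 bases or more, 27.5% were lower without overlap.

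Transcripts of the postsynaptic density were lower more often than higher. Grin2b, the GluN2B subunit of NMDA receptors, had 57.0, 40.6 and 32.1 CPM in stressed KO libraries, against 68.1, 86.9 and 90.4 CPM in unstressed KO libraries. Stressed library 1 was the highest of its group. The log2 fold change of Grin2b was -0.91 ± 0.18 (adjusted p = 0.341), and it passed without that library at -1.17 ± 0.16 (adjusted p = 0.042). Its transcript has 24060 bases, and with length offset it was at -0.77 (adjusted p = 0.347). Homer1, a scaffold that links metabotropic glutamate receptors to calcium stores, had 159, 170.3 and 194 CPM in stressed against 234, 217 and 251 CPM in unstressed libraries (log2 -0.42 ± 0.12, adjusted p = 0.470; -0.36 without stressed library 1). The scaffolds Shank2 (-0.42 ± 0.14; -0.40 without stressed library 1) and Dlg1 (-0.24 ± 0.08; -0.23) and the NMDA receptor subunit Grin2a (-0.74 ± 0.28; -0.86) were also lower without overlap, and none of these passed. Of 32 genes in the list, 0 passed, 26 had a log2 fold change below 0, 10 (31.2%) had groups that did not overlap with stressed lower, and 0 with stressed higher. The share lower without overlap was 8.45% over all genes, 18.6% among genes of 6000 to 8000 bases and 27.5% among longer ones. The median was -0.18, and -0.12 without stressed library 1. The obligatory NMDA subunit gene Grin1 was at 0.03 ± 0.10, and the AMPA receptor gene Gria1 at 0.06 ± 0.09, or 0.05 and -0.03 without stressed library 1. Many of these genes have long transcripts, with a list median of 6077 bases against 3177 over all genes with a length, and after transcript length was offset the list's median was -0.09.

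Among 17 subunits of voltage-gated calcium channels, 0 passed, and the median log2 fold change was -0.04 with all libraries and without stressed library 1. With length offset the median was 0.06, and the list's median length was 7926 bases. The shares without overlap were 8.45% each way over all genes, and 18.6% lower and 1.87% higher among genes of 6000 to 8000 bases. In this list 0 were higher and 2 (11.8%) lower without overlap. They were Cacna1a, the P/Q-type pore (108, 127 and 111 against 136, 135 and 150.2 CPM; log2 -0.29 ± 0.10; -0.24 without stressed library 1), and Cacnb4, an auxiliary subunit (294, 299 and 288 against 349, 313 and 417 CPM; log2 -0.29 ± 0.10; -0.29 without stressed library 1), each with an adjusted p of 0.470. Both were at -0.18 with length offset. Cacna1i, the pore gene of the T-type channel Cav3.3, had 93.0, 141 and 119 CPM in stressed and 131, 118 and 128 CPM in unstressed libraries (log2 -0.09 ± 0.14, or 0.05 without stressed library 1). The potassium channel genes Kcnh5 and Kcnh7 did not pass and had log2 fold changes of -0.95 ± 0.26 and -0.85 ± 0.25, or -0.93 and -0.92 without stressed library 1.

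Of 23 immediate early transcription factors tested, 16 were lowest in library 1 among the stressed KO libraries and 4, Nr4a2 and Nr4a3 among them, were highest there; of 26 activity-induced effectors, 16 were lowest and 3 highest there. Arc, whose product moves AMPA receptors and is transcribed after synaptic activity, had 28.1, 41.7 and 74.2 CPM in stressed KO libraries, against 19.1, 20.6 and 20.5 CPM in unstressed KO libraries. The groups did not overlap, yet stressed values varied so much that the gene did not pass (log2 1.25 ± 0.37, adjusted p = 0.470; 1.52 without stressed library 1). Junb, an AP-1 subunit, had 28.9, 45.4 and 51.9 CPM in stressed against 24.3, 20.7 and 26.5 CPM in unstressed libraries (log2 0.81 ± 0.20, adjusted p = 0.470; 1.03 without stressed library 1). Nr4a1, an orphan nuclear receptor induced by activity, had 35.6, 55.7 and 62.4 CPM in stressed against 38.1, 31.9 and 32.9 CPM in unstressed libraries. Library 1 lay within the unstressed range for Nr4a1, whose log2 fold change was 0.57 ± 0.17 (adjusted p = 0.470); without that library it passed, at 0.78 ± 0.11 (adjusted p = 0.042).

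Fos, the best known member, had 4.67, 11.04 and 17.9 CPM in stressed and 9.23, 5.11 and 7.42 CPM in unstressed KO libraries, and Npas4 had 13.2, 29.9 and 30.7 CPM in stressed and 14.9, 12.9 and 25.0 CPM in unstressed libraries. Both overlapped between the groups, and stressed library 1 lay at the low end for both. None of the 23 immediate early transcription factors passed. Groups did not overlap with stressed higher in 4 (17.4%), Junb, Nab2, Klf10 and Btg2, and with stressed lower in 2 (8.70%), Fosl2 and Klf6. Over all genes the shares were 8.45% each way, and among genes of 2000 to 3000 bases 12.9% higher and 4.21% lower. That class holds the median length of this list, 2965 bases, and of the activity-induced effectors, 2800 bases. The median log2 fold change was 0.27, and 0.26 without stressed library 1. The mean deviation of these genes from their average over the 6 KO libraries, in log2 CPM, was -0.20, 0.14 and 0.36 in stressed and -0.03, -0.19 and -0.08 in unstressed libraries. Among 26 activity-induced effectors 0 passed, with 4 higher (15.4%) and 2 lower (7.69%) without overlap and a median of 0.08, or 0.12 without stressed library 1. Homer1, an effector as well as a scaffold, was among those lower, and Bdnf, the neurotrophin gene, was at -0.27 ± 0.17, or -0.14 without stressed library 1.

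No target of the glucocorticoid receptor passed. Of 28 receptors and targets tested, 0 passed and the median log2 fold change was -0.00, or 0.03 without stressed library 1. Groups did not overlap with stressed higher in 3 (10.7%), Per1, Fkbp5 and Arrdc2, and with stressed lower in 0. Over all genes the shares were 8.45% each way. Fkbp5, a co-chaperone that dampens the receptor, had 33.4, 32.4 and 32.3 CPM in stressed against 27.3, 28.2 and 29.4 CPM in unstressed KO libraries (log2 0.21 ± 0.08, adjusted p = 0.494; 0.19 without stressed library 1). Among 23 stress neuropeptides and receptors, 0 passed, and the median was -0.03, or -0.05 without stressed library 1. Without overlap 2 were higher, Npy and Pdyn, and 2 lower, Ntrk2 and Adcyap1 (8.70% each, near the 8.45% over all genes). Ntrk2 was at -0.20 ± 0.09, or -0.22 without stressed library 1 and -0.05 with length offset. Adcyap1 was at -0.39 ± 0.22, or -0.14 without stressed library 1. Npy, an inhibitory peptide of interneurons, had 54.5, 46.9 and 47.6 CPM in stressed against 35.7, 41.3 and 44.7 CPM in unstressed libraries (log2 0.29 ± 0.12, adjusted p = 0.510; 0.22 without stressed library 1). Pdyn, the dynorphin precursor, had 55.4, 30.9 and 31.2 CPM in stressed against 25.4, 20.4 and 23.6 CPM in unstressed libraries (log2 0.77 ± 0.22, adjusted p = 0.470; 0.42 without stressed library 1). Penk, the enkephalin precursor, overlapped between the groups, with 153 CPM in stressed library 1 and 37.8 and 38.8 CPM in stressed libraries 2 and 3, against 40.7, 36.5 and 26.8 CPM in unstressed libraries, and its log2 fold change was 1.15 ± 0.49, or 0.14 without stressed library 1. Crh, which encodes corticotropin-releasing hormone, was at -0.10 ± 0.25, or 0.10 without stressed library 1. Of 31 genes of the endoplasmic reticulum and integrated stress response 0 passed, with 3 higher and 3 lower without overlap (9.68% each, near the 8.45% over all genes), and a median of -0.03, or -0.06 without stressed library 1. Of 16 heat shock and cold-inducible genes 0 passed, with 1 higher and 1 lower without overlap (6.25% each) and a median of -0.03, or -0.01 without stressed library 1. Cirbp, which is induced by cold, was at 0.07 ± 0.14, or 0.09 without stressed library 1.

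Interferon-stimulated genes were slightly higher in most cases. Of 34 tested, 0 passed, 30 had a log2 fold change above 0 (26 without stressed library 1), and groups did not overlap in 8 (23.5%) with stressed higher and in 1 (2.94%) with stressed lower, against 8.45% each way over all genes. Among genes of 2000 to 3000 bases, the class of the list's median of 2373.5 bases, the shares were 12.9% higher and 4.21% lower. The list's median log2 fold change was 0.14, or 0.13 without stressed library 1 and 0.19 with length offset. Irf9, the DNA-binding part of the interferon-activated complex, had 9.61, 7.47 and 8.32 CPM in stressed against 6.86, 5.89 and 4.63 CPM in unstressed KO libraries (log2 0.55 ± 0.17, adjusted p = 0.470; 0.44 without stressed library 1). The viral RNA sensor Ddx58 had 5.29, 5.54 and 5.06 CPM in stressed against 4.31, 3.79 and 3.94 CPM in unstressed libraries (log2 0.40 ± 0.13, adjusted p = 0.470; 0.40 without stressed library 1). Ifit3 was higher by 1.05 ± 0.29 on the log2 scale, or 0.96 without stressed library 1, but its counts carry decimals in 11 libraries and it has near copies, so it is uncertain. Markers of microglia, which express many of these genes, had a median of -0.04 over 20 members, or 0.00 without stressed library 1, and 0 with separate groups. Of 8 nuclear long non-coding RNAs 0 passed and all 8 had a log2 fold change above 0 (7 without stressed library 1), with a median of 0.36, or 0.30 without stressed library 1. Kcnq1ot1, which silences an imprinted domain, had 33.0, 41.1 and 42.2 CPM in stressed against 22.9, 15.6 and 9.86 CPM in unstressed libraries (log2 1.26 ± 0.46, adjusted p = 0.480; 1.362 without stressed library 1). Unstressed library 1 was the highest of its group for it, and for Meg3 that library lay within the stressed range.

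**Figure D4:**
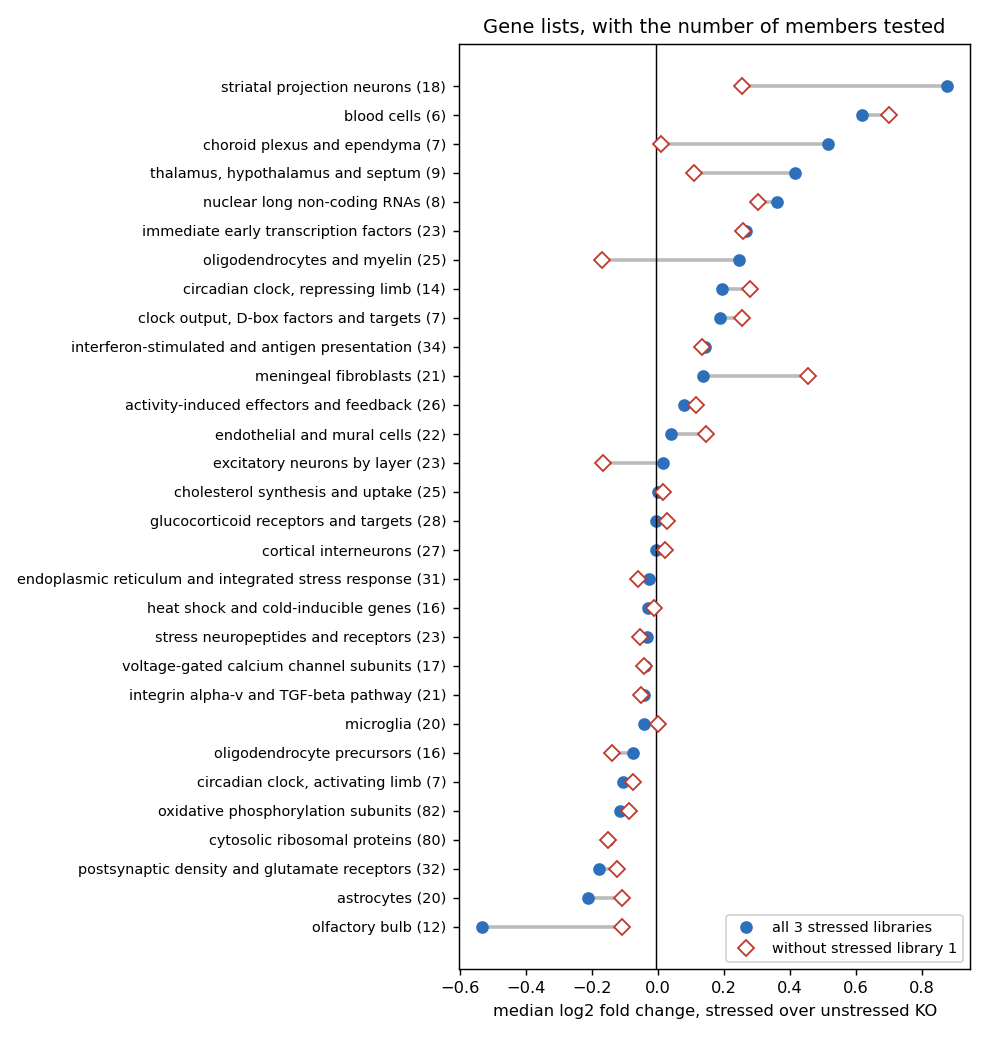
Median log2 fold change of stressed over unstressed KO cortex for each gene list, with the number of members tested; filled circles use all libraries, open diamonds leave out stressed library 1, and the vertical line is the median of all genes tested. Striatal markers have a median of 0.88 with all libraries and 0.26 without library 1, and myelin markers 0.24 and -0.17, whereas the clock, immediate early and interferon lists stay on their side of 0.

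Cell type markers moved with stressed library 1 in several lists, and their part in the results was not tested beyond leaving that library out and a fit with the striatal score as covariate. Of 18 striatal projection neuron markers 0 passed, and 6 (33.3%, against 8.45% over all genes) had groups that did not overlap with stressed higher. The list's median log2 fold change was 0.88, or 0.26 without stressed library 1. By that definition, stressed libraries 2 and 3 also lay above every unstressed value in these 6. Over all 18 markers, 11 had a log2 fold change above 0 and 7 below 0 without stressed library 1. Drd2 had 14.3, 1.21 and 1.34 CPM in stressed against 0.724, 0.958 and 0.648 CPM in unstressed libraries (log2 2.89 ± 0.88, adjusted p = 0.470; 0.71 without stressed library 1). Lrrc10b had 12.95, 4.19 and 3.39 CPM in stressed against 2.44, 2.92 and 1.64 CPM in unstressed libraries (1.57 ± 0.43; 0.70 without stressed library 1). Ppp1r1b, the DARPP-32 gene of striatal neurons, overlapped, with 229, 73.8 and 72.4 CPM in stressed and 49.6, 64.2 and 80.9 CPM in unstressed libraries. Among other genes with high log2 fold changes, Cd4 had 5.05, 0.820 and 0.897 CPM in stressed against 0.686, 0.411 and 0.648 CPM in unstressed libraries, and Ano2, Zfp503 and Hist1h2ap were also highest in library 1. Without it these 4 were at 0.55, 1.07, 0.67 and 0.63, against 2.00, 1.82, 1.16 and 1.13 with it. Dbp and Arc, as given above, were instead lowest in library 1 among the stressed libraries.

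Of 25 oligodendrocyte and myelin markers, 22 had a log2 fold change above 0 with all libraries, and 18 of these were below 0 without stressed library 1. Nkx6-2, a transcription factor of oligodendrocytes, did not turn, at 0.75 ± 0.29, or 0.29 without stressed library 1. Mbp had 1032, 481 and 461 CPM in stressed and 486, 633 and 446 CPM in unstressed KO libraries, with a log2 fold change of 0.33 ± 0.33, or -0.15 without stressed library 1. Cnp was at 0.17 ± 0.22, or -0.19 without stressed library 1. The 25 oligodendrocyte and myelin markers had a median of 0.24, or -0.17 without stressed library 1. Oligodendrocyte precursor markers had 4 of 16 (25.0%) lower and 1 (6.25%) higher without overlap, and a median of -0.07, or -0.14 without stressed library 1. The shares over all genes were 8.45% each way. Among genes of 4000 to 6000 bases, the class of the list's median of 4853 bases, they were 12.0% lower and 4.60% higher. The 1 higher was Sox10 (0.44 ± 0.26, or 0.17 without stressed library 1). Those lower included Ptprz1, the extracellular matrix gene Tnr (-0.59 ± 0.21, or -0.72 without stressed library 1) and the growth factor receptor gene Pdgfra. Pdgfra had 52.1, 52.4 and 52.4 CPM in stressed against 58.7, 66.3 and 57.6 CPM in unstressed libraries (-0.22 ± 0.09, adjusted p = 0.507, and -0.22 without stressed library 1). Of 20 astrocyte markers 18 had a log2 fold change below 0 (16 without stressed library 1) and 2 were lower without overlap, with a median of -0.21, or -0.11 without stressed library 1. Slc1a2, the main glutamate transporter of astrocytes, had 1807, 1932 and 1702 CPM in stressed against 2322, 3244 and 2201 CPM in unstressed libraries (log2 -0.51 ± 0.15, adjusted p = 0.470; -0.51 without stressed library 1). Astrocyte markers were highest in unstressed library 2, where they summed to 6920 CPM, against 4038, 4582 and 4301 CPM in stressed libraries and 5193 and 4410 CPM in the other unstressed ones. Cortical interneuron markers had a median of -0.01 over 27 genes, or 0.02 without stressed library 1, with 2 higher and 2 lower without overlap (7.41% each).

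The genes that differed between stressed and unstressed KO libraries also differed in transcript length. A length was known for 14622 of the genes tested (96.2%). Among 846 genes with transcripts of 8000 bases or more, groups did not overlap with stressed lower in 27.5% and with stressed higher in 0.827%. Their median log2 fold change was -0.16, or -0.21 without stressed library 1. Among 2778 genes of 1000 to 2000 bases, groups did not overlap with stressed lower in 2.52% and with stressed higher in 12.2%. The 724 genes under 1000 bases did not continue this trend, with 2.35% lower and 2.62% higher. Their median was -0.07, or -0.05 without stressed library 1. Genes at an unadjusted p under 0.05 had a median length of 5811 bases when lower and 2536 bases when higher. Across genes, which are not independent replicates, Spearman's rho of the log2 fold change with length was -0.21, or -0.28 without stressed library 1, and with GC content it was 0.36. In the fifth of genes with the lowest GC content, 23.4% were lower and 2.02% higher without overlap, and in the fifth with the highest, 1.23% were lower and 17.3% higher. The trend differed between libraries of 1 group. For genes of 8000 bases or more, the median deviation from the 6-library average was 0.02, -0.04 and -0.20 in stressed and 0.05, 0.02 and 0.16 in unstressed libraries, so stressed library 3 and unstressed library 3 lay at the extremes. With length offset in each library Dbp and Pakap passed and Itgb8, whose transcript has 8403 bases, had a log2 fold change of -0.64 and an adjusted p of 0.095. With GC content offset instead, all 3 passed. Length offsets also moved Shank2 to -0.27, Skil to -0.13 and Pdgfra to -0.12.

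**Figure D5:**
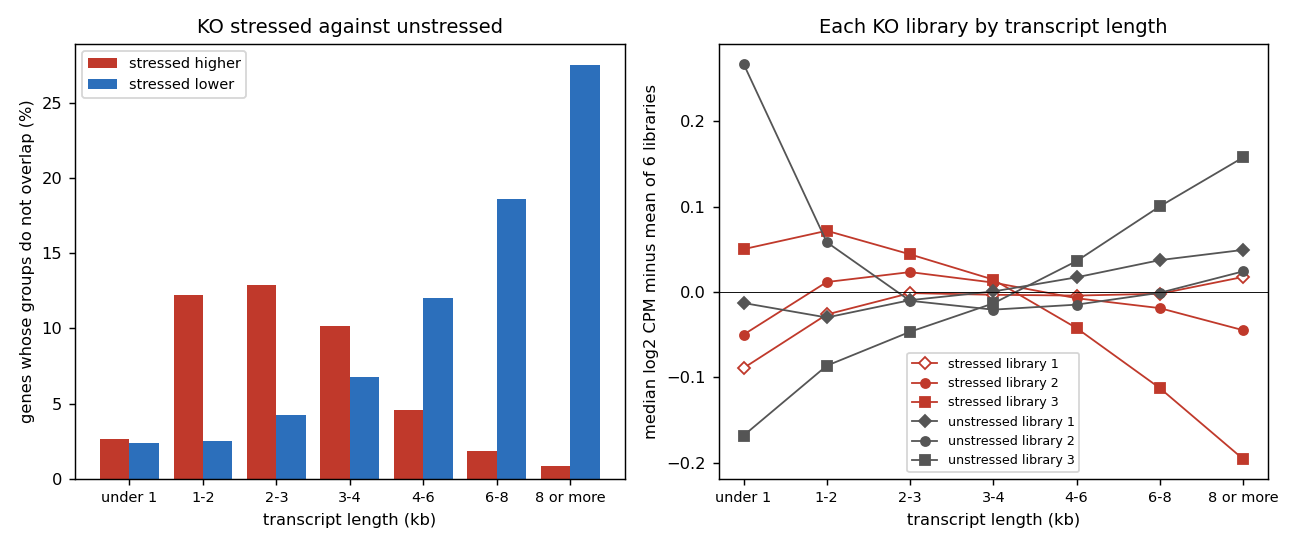
Left, the percentage of genes in each class of transcript length whose stressed and unstressed KO values do not overlap, with stressed higher or lower. Right, the median deviation of each KO library from the average of the 6 in the same classes, in log2 CPM; lower values in stressed KO reach 27.5% of the longest genes, and both number 3 libraries deviate most there, in opposite directions.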

How the data were processed

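RNA was sequenced from 12 cortex libraries, made per the labels' protocols with a directional kit. The authors deposited unnormalised estimated counts per gene symbol. The submitters' processing notes name STAR 2.7.9a, RSEM 1.3.1, Trim Galore 0.6.6 and DESeq2 1.36.0 with mm10. The annotation and the handling of strand in counting are not stated there, so overlapping genes are reported as uncertain where they matter. The estimated counts were rounded. edgeR's filterByExpr (minimum count 10, minimum total 15) left 15199 of 24411 genes, with libraries scaled by TMM factors. A single quasi-likelihood fit (R 4.3.3, edgeR 4.0.16) covered the 12 libraries with a mean per group (4 groups, 8 residual degrees of freedom), and the contrast was stressed minus unstressed KO. Two-sided p-values were adjusted by the Benjamini-Hochberg method across all tested genes and called at an adjusted p under 0.05. With 3 against 3 libraries the smallest permutation p is 0.1, and no permutation test was run. List medians are given without a test. The deviations of libraries use log2 CPM with a prior count of 2. The test was tried on simulated data. Replicates were compared pairwise and none agreed within sampling noise. Same-numbered libraries of both groups had correlations of deviations of -0.08, 0.01 and -0.12, and other pairs ran from -0.07 to 0.14. No pairing by number was seen in these values, but so few correlations cannot exclude it.

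The comparison, the 30 gene lists and the rule for naming genes were chosen with earlier results of these data known. The rule took Cacna1g, genes that passed with or without stressed library 1, the 20 smallest p, the 10 largest rises and falls among genes without overlap at an unadjusted p under 0.01 whose log2 CPM averaged 0 or more, and the 4 smallest p per list. Genes named beyond it, and all single values given for striatal, layer, cholinergic and dividing-cell genes in stressed library 1, were picked after values were seen. Single values of some list members are not reported here. Transcript lengths, GC content and positions were read from GENCODE M21 (GRCm38, the same build as mm10). Alternatives were DESeq2 1.42.0 and its size factors, no filter, KO libraries alone, other WT libraries, a replicate block, a striatal score as covariate, and leaving out each KO library; offsets for length and GC were added after seeing the data.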

Additional observations from a re-analysis of the deposited data

How the results depend on the processing

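The 3 calls became 44 with DESeq2 (10 higher, 34 lower) and between 1 and 5 when a single KO library was left out: 5 without stressed library 1, 1 without stressed library 2 or 3, 2 without unstressed library 1, and 1 without unstressed library 2 or 3. DESeq2 size factors, no filter on low counts, leaving out unstressed WT libraries 1 and 2, and GC offsets each gave 3. KO libraries alone, with or without stressed library 1, the striatal covariate, and length offsets each gave 2. The numbers do not pair the libraries; with the replicate number as a block 4 genes passed, Ciart being added. Pakap passed in 16 of 16 alternatives, Dbp in 11 and Itgb8 in 8. Dbp missed the threshold without stressed library 2 or 3 or any unstressed KO library (adjusted p up to 0.0770), and Itgb8 without stressed library 2 or 3 or unstressed library 2 or 3, in KO libraries alone with or without stressed library 1, with the striatal covariate and with length offsets (adjusted p up to 0.107); their log2 fold changes ran from 0.89 to 1.06 and from -0.85 to -0.64. The cause was not tested.

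Of 1430 pairs of a reported gene and an alternative, 27 turned sign, in 11 genes. With single KO libraries left out, log2 fold changes ran from -0.0641 to 0.06145 for Cacna1g, from -0.0323 to 0.54 for Mog, from -0.11 to 0.84 for Mobp, from -0.0838 to 0.29 for Adcy5, from -0.17 to 0.0806 for Meis2, from -0.29 to 0.69 for Pde10a, from -0.15 to 0.54 for Mbp, from -0.19 to 0.32 for Cnp and from -0.071 to 0.42 for Trf. With the striatal covariate, signs turned for Penk (-0.0074), Ndrg1 (-0.084), Mog (-0.11), Mobp (-0.23), Adcy5 (-0.14), Pde10a (-0.43), Mbp (-0.28), Cnp (-0.28), Trf (-0.16). In KO libraries alone without stressed library 1 they turned for Mog (-0.03045), Mobp (-0.11), Adcy5 (-0.0817), Pde10a (-0.29), Mbp (-0.15), Cnp (-0.19), Trf (-0.06995), and with GC offsets for Cacna1g (-0.0765). Totals of 15469590 to 28022130 counts and 3 libraries a group limit what can be detected, and genes that did not pass are not shown to be unaltered. Stressed library 3 was the shallowest.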

Other observations

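Markers of neighbouring tissue varied between KO libraries of the same group, and the meningeal ones depended on stressed library 1. Omp, the marker of mature olfactory sensory neurons, had 0.279, 0.530 and 8.77 CPM in stressed and 1.68, 0.274 and 0.0996 CPM in unstressed KO libraries, and Cdhr1, a protocadherin of mitral and tufted cells, had 8.53, 19.9 and 35.3 CPM in stressed and 59.5, 23.9 and 16.0 CPM in unstressed libraries. Of 12 olfactory bulb markers tested 0 passed, and their median log2 fold change was -0.53, or -0.11 without stressed library 1. Meningeal fibroblast markers summed to 364, 666 and 664.5 CPM in stressed and 520, 587 and 367 CPM in unstressed libraries, and Ptgds, which is abundant in the meninges, had 92.2, 260.2 and 258 CPM in stressed and 148, 163 and 73.2 CPM in unstressed libraries. Stressed library 1 was the lowest of its group for 21 of 21 meningeal markers, and both other stressed sums lay above every unstressed sum. Without that library 19 of these markers had a log2 fold change above 0 and 2 below 0. The list's median was 0.14, or 0.46 without stressed library 1, and 0 passed.

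Housekeeping programmes differed mainly through unstressed library 2. Cytosolic ribosomal protein genes deviated from their 6-library average by 0.44 in that library, by -0.09, -0.13 and 0.01 in stressed libraries, and by 0.01 and -0.25 in the other unstressed ones; 0 of 80 passed and the median log2 fold change was -0.15, with or without stressed library 1. Genes of oxidative phosphorylation deviated by 0.31 in unstressed library 2, and 0 of 82 passed, with a median of -0.12, or -0.09 without stressed library 1. Cholesterol synthesis genes had a median of 0.00 over 25 members, or 0.02 without stressed library 1. The haemoglobin gene Hba-a1, whose reads are shared with a near copy, had 33.4, 92.0 and 65.8 CPM in stressed and 50.8, 0 and 21.2 CPM in unstressed libraries.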
